A study of Mus musculus with 6 samples.

Results

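The B cell identity and receptor signalling genes were a set of 34 named genes, chosen by symbol and measured in lung cells of Bmi1 mutant and Bmi1 wild-type mice. They comprise 17 genes used here as B cell-restricted, whose known expression among blood-derived cells is mainly that of B cells, and 17 that other leukocytes or tissue cells also use, here called shared. The split was made by hand, and some restricted genes are known in other cells too: Cxcr5 and Cd72 in some T cells, Cr2 in follicular dendritic cells and Spib in plasmacytoid dendritic cells. All 17 restricted genes and 15 of the shared genes were measured, which makes 32 of the 18193 genes of the arrays, by 63 probe sets. Cd38 and Lyn were not analysed here. Of the probe sets of a gene, the one with the highest mean over the 6 arrays stood for it.

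The arrays compared Bmi1 mutant lung cells (genotype given as Bmi1 null, 3 arrays) with Bmi1 wild-type lung cells (3 arrays), both from female mice aged 4 months on a mixed Bl6/129 background. The BMI1 protein belongs to the Polycomb group, which holds many developmental genes silent. Cells from digested lungs were sorted as live and negative for CD31 and CD45, a gate meant to leave out endothelial and blood-derived cells. The arrays are labelled as biological replicates. The sources used here do not give the part of Bmi1 that the null allele lacks, or whether an array holds 1 mouse or several.

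B cells carry an antigen receptor made of a membrane immunoglobulin and the signal chains CD79A and CD79B. When antigen binds, kinases of the Src, Syk and Tec families phosphorylate the chains and adaptors, and co-receptors raise or dampen the signal. The transcription factors EBF1 and PAX5 establish and hold the B cell fate. Mice without Bmi1 are known from earlier work for blood-forming defects with few lymphocytes, a background fact that these arrays do not test.

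Bmi1 itself did not read lower in the mutant-labelled arrays. One of its probe sets had signals of 1276, 1498 and 1565 in Bmi1 mutant arrays, against 996, 980 and 1164 in wild-type arrays (exact permutation p = 0.1, two-sided, the smallest possible with 3 arrays against 3). The other probe set overlapped between genotypes (exact permutation p = 0.7). A probe set outside the missing part of the gene checks nothing, so every direction given here rests on the labels. Correlations of log2 signals over genes lay between 0.97 and 0.978 within mutant arrays, 0.978 and 0.979 within wild-type arrays, and 0.957 and 0.973 between genotypes. The sort markers were present in both genotypes. Ptprc, which encodes CD45, averaged 5767 ± 852 in Bmi1 mutant arrays and 7716 ± 966 in wild-type arrays (SD, n = 3 each). Pecam1, which encodes CD31, averaged 2939 ± 247 in Bmi1 mutant arrays and 2247 ± 506 in wild-type arrays (SD, n = 3 each). The B cell genes were read in cells sorted to lack CD45.

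The B cell-restricted genes were mostly lower in Bmi1 mutant cells, and the shared genes were lower by less. Of the 17 restricted genes, 12 fell and 0 rose at an adjusted p under 0.05 in limma's moderated test, in which 0.511% of all genes fell. Their median log2 difference, Bmi1 mutant minus wild type, was -1.77, against 0.01 over all genes tested. Of the 15 shared genes, limma called 0, with 8 at an unadjusted p under 0.05, and their median was -0.58. That unadjusted threshold was met, always with the mutant lower, by 14 restricted and those 8 shared genes, against 7.04% of all genes lower and 14.5% in either direction. Of all genes 0.412% rose and 0.923% were called in either direction. Every mutant array lay below every wild-type array in 14 restricted and 7 shared genes, and in 10.0% of all genes. The reverse held for 0 restricted genes, 1 shared gene (Cd24a) and 10.4% of all genes. The medians are descriptions, and the difference between restricted and shared genes was not tested. In a mixture of cells, fewer cells of a type and less RNA per cell cannot be told apart.

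**Figure D1:**
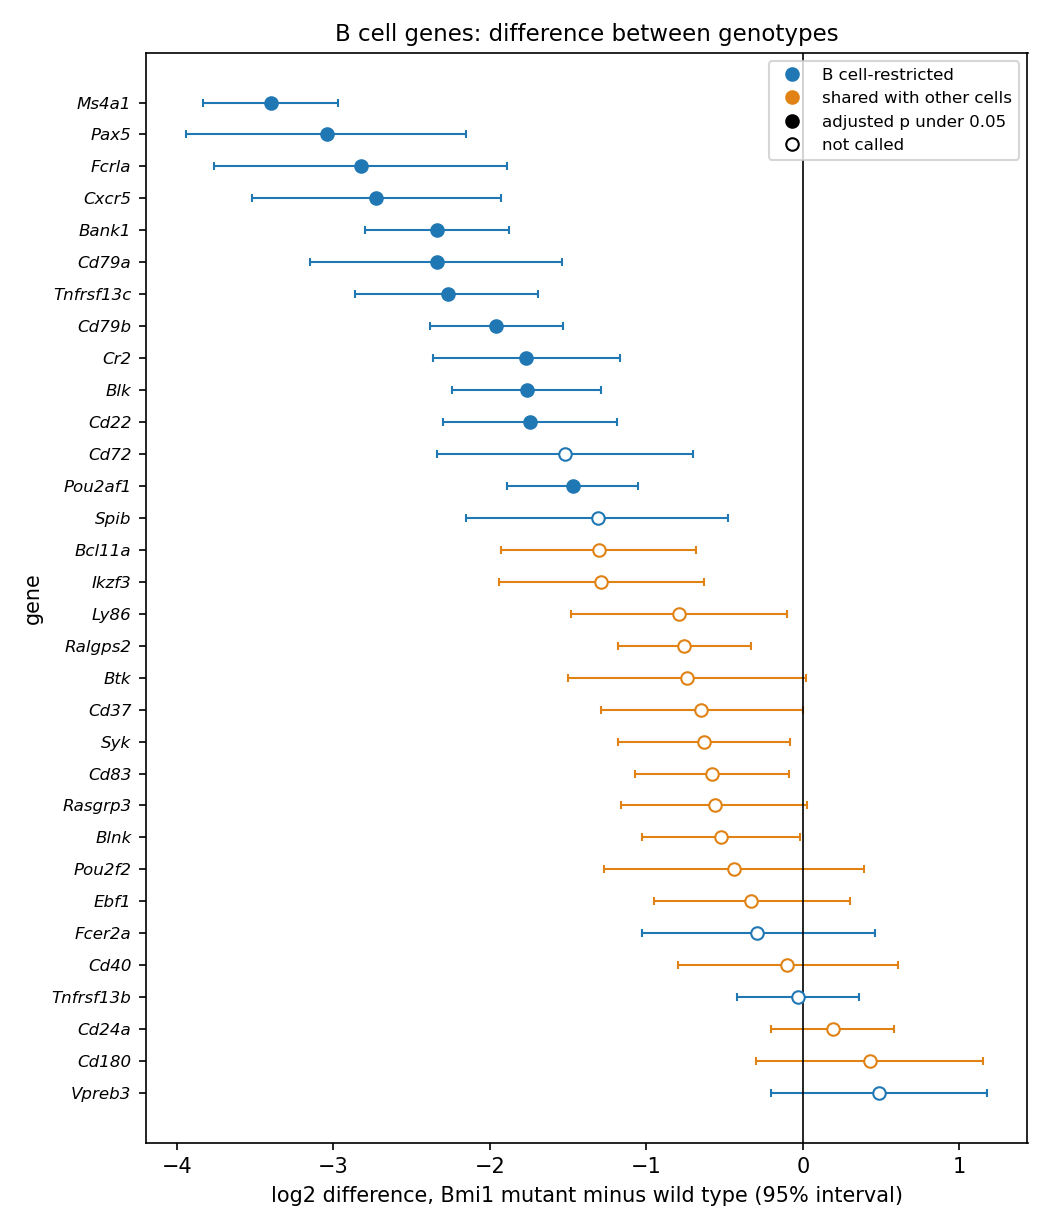
Log2 difference (Bmi1 mutant minus wild type, x axis) of the 32 measured genes with limma's 95% interval, coloured by whether a gene is B cell-restricted or shared. Filled points are called at an adjusted p under 0.05: 12 restricted genes from Ms4a1 at -3.40 to Pou2af1 at -1.47, and 0 shared genes.

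The signal chains of the antigen receptor fell together. Cd79a had signals of 384, 422 and 169 in Bmi1 mutant arrays, against 1464, 1819 and 1533 in wild-type arrays. The groups were far apart, and mutant replicate 3 read lowest. The log2 difference was -2.34 ± 0.34 (SE, limma adjusted p = 0.0386), and 20.2% of the wild-type mean signal remained. Cd79b had signals of 297, 291 and 276 in Bmi1 mutant arrays, against 1052, 1417 and 1057 in wild-type arrays. Its mutant arrays lay close to each other, and the log2 difference was -1.96 ± 0.18 (SE, limma adjusted p = 0.0111), with 24.5% of the signal left.

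Promoter sequence was read for 24 of the 32 measured genes from RefSeq (GRCm38.p6), over the 250 bases before each annotated start. The 24 genes had 31 windows, so counts of genes and shares of windows are unlike measures. The windows were searched on both strands for the octamer ATGCAAAT, which the POU2F factors and their cofactor POU2AF1 use, the palindrome bound by EBF factors and the ETS motif GAGGAAGT of the PU.1 and SPI-B type. Windows of Cd79a and Cd22, which fell, and of Cd72 and Vpreb3, which were not called, are shown 5′ to 3′ because they hold 1 match of 1 motif each or, in Cd79a, none. Capitals mark the match, so no matches overlap in these windows.
Cd79a (GRCm38.p6, chr7:24897247-24897496, plus strand): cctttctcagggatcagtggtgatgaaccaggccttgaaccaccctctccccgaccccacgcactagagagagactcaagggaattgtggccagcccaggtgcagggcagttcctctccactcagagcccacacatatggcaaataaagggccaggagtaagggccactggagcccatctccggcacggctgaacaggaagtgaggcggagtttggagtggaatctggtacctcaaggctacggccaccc
Cd22 (GRCm38.p6, chr7:30879029-30879278, minus strand): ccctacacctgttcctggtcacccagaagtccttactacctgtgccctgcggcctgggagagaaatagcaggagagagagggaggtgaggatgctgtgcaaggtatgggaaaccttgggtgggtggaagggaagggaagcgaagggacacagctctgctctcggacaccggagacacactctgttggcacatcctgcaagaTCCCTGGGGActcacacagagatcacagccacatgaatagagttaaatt
Cd72 (GRCm38.p6, chr4:43454627-43454876, minus strand): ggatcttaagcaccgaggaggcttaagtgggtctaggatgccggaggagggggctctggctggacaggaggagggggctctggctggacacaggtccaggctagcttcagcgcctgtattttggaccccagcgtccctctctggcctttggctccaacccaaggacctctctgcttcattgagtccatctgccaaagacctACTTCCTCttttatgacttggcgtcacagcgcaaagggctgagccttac
Vpreb3 (GRCm38.p6, chr10:75948050-75948299, plus strand): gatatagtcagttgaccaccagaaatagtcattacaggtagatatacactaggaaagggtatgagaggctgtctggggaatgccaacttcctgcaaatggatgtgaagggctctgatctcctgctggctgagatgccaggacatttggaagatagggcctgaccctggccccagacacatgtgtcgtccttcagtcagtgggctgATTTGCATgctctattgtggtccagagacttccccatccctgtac
The EBF palindrome lay 49 to 40 bases before the start of Cd22 and was found in no other of the 24 genes, and in 0.779% of all 32851 promoter windows. The ETS motif lay 49 to 42 bases before the start of Cd72, on the opposite strand, and also occurred in Cd37 and Rasgrp3 (2.44% of all windows). The octamer lay 45 to 38 bases before the start of Vpreb3, on the opposite strand, and also occurred in Blnk (1.6% of all windows). Of these 6 genes with a match, Cd22 was called and the others were not. A match describes letters in a window and is not a binding site, and its absence says only that those letters are not there.

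Among the kinases next to the receptor, the B cell kinase fell and the kinases used by many leukocytes were not called. Blk, a Src-family kinase of B cells, had signals of 95.5, 116 and 93.0 in Bmi1 mutant arrays, against 409, 445 and 303 in wild-type arrays. All mutant arrays lay under all wild-type arrays, with a log2 difference of -1.76 ± 0.20 (SE, limma adjusted p = 0.022). Syk, which myeloid cells also use, had signals of 900, 1527 and 1045 in Bmi1 mutant arrays, against 1593, 1701 and 1994 in wild-type arrays. The groups did not overlap, but mutant replicate 2 came close to the wild-type arrays, and the log2 difference of -0.63 was not called (95% interval -1.18 to -0.08, limma adjusted p = 0.288). The 4 probe sets of Syk ran from -0.85 to -0.53. Btk, the Tec-family kinase of B and myeloid cells, differed by -0.74 (95% interval -1.50 to 0.02, limma adjusted p = 0.356), and its groups overlapped.

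Of the 4 adaptors and regulators of small GTPases, Bank1 was called. Bank1, a scaffold protein of B cells, had signals of 113, 73.3 and 86.8 in Bmi1 mutant arrays, against 470, 575 and 516 in wild-type arrays. The genotypes were well separated, with a log2 difference of -2.34 ± 0.19 (SE, limma adjusted p = 0.00995). Ralgps2, an exchange factor for Ral GTPases, had signals of 284, 351 and 368 in Bmi1 mutant arrays, against 594, 628 and 504 in wild-type arrays. These did not overlap either, but the difference of -0.76 missed the threshold (limma adjusted p = 0.122). Blnk, the adaptor that links SYK to downstream enzymes, differed by -0.52 and Rasgrp3, an exchange factor for Ras-family GTPases, by -0.56, and neither was called (limma adjusted p = 0.33 and 0.365).

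Of the 3 co-receptors that tune the signal, Cr2 and Cd22 fell. Cr2, which encodes the complement receptors of B cells, had signals of 50.1, 71.1 and 39.4 in Bmi1 mutant arrays, against 286, 193 and 183 in wild-type arrays. Its log2 difference was -1.77 ± 0.25 (SE, limma adjusted p = 0.0354). Cd22, a sialic acid-binding inhibitory receptor, had signals of 246, 367 and 423 in Bmi1 mutant arrays, against 1009, 1270 and 1240 in wild-type arrays. It fell by 1.74 (SE 0.24, limma adjusted p = 0.0307), and its dimmer probe set differed by -1.21. Cd72, another inhibitory receptor, had signals of 150, 390 and 210 in Bmi1 mutant arrays, against 693, 857 and 566 in wild-type arrays. The genotypes did not overlap, but the mutant arrays were widely spread, and the difference of -1.52 was not called (95% interval -2.34 to -0.70, limma adjusted p = 0.114).

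Of the 6 measured surface and Fc receptor-like proteins, Ms4a1 and Fcrla fell. Ms4a1, which encodes CD20, had signals of 133, 132 and 103 in Bmi1 mutant arrays, against 1261, 1598 and 1474 in wild-type arrays. The log2 difference was -3.40 ± 0.18 (SE, limma adjusted p = 0.00314), which ranked 2 of 18193 genes counted from the greatest fall. Its other probe set, with 118, 196 and 60.5 in Bmi1 mutant arrays and 1147, 1356 and 1346 in wild-type arrays, differed by -3.32. Fcrla, an intracellular Fc receptor-like protein of B cells, had signals of 33.0, 104 and 47.2 in Bmi1 mutant arrays, against 362, 735 and 446 in wild-type arrays. Its difference was -2.82 ± 0.39 (SE, limma adjusted p = 0.034), and its 3 probe sets ran from -3.66 to -2.82.

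The surface genes Fcer2a, Cd83, Cd37 and Cd24a were not called. Fcer2a, the low-affinity IgE receptor of mature B cells, had signals of 199, 85.2 and 138 in Bmi1 mutant arrays, against 124, 190 and 196 in wild-type arrays. These overlapped, with a difference of -0.29 (95% interval -1.03 to 0.46, limma adjusted p = 0.745). Signals of both Fcer2a probe sets lay between 73.3 and 199, near the array medians of 97.4 to 114. Without detection calls it cannot be told whether Fcer2a was detected. Cd83, which activated dendritic cells also express, had signals of 4240, 4868 and 4152 in Bmi1 mutant arrays, against 5286, 8285 and 6559 in wild-type arrays. Its groups did not overlap, with a difference of -0.58 (limma adjusted p = 0.274). The tetraspanin gene Cd37 differed by -0.65 (limma adjusted p = 0.341). Cd24a, which epithelial cells and granulocytes also express, had signals of 12449, 15189 and 11925 in Bmi1 mutant arrays, against 11154, 11854 and 11481 in wild-type arrays. All 3 of its probe sets lay slightly above 0, from 0.11 to 0.19, and it was not called (95% interval -0.20 to 0.58, limma adjusted p = 0.667). The chosen Cd24a probe set is of a type that can share sequence with other transcripts.

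Of the receptors for the survival factor BAFF, Tnfrsf13c fell and Tnfrsf13b was not called. Tnfrsf13c, the BAFF receptor that mature B cells need to survive, had signals of 453, 270 and 378 in Bmi1 mutant arrays, against 1701, 2234 and 1536 in wild-type arrays. It fell by 2.27 (SE 0.25, limma adjusted p = 0.0189), and 20.1% of the wild-type mean signal remained. Tnfrsf13b, which encodes the related receptor TACI, had signals of 287, 247 and 218 in Bmi1 mutant arrays, against 252, 250 and 262 in wild-type arrays. Its mutant arrays lay on either side of the wild-type arrays, with a difference of -0.03 (95% interval -0.42 to 0.36, limma adjusted p = 0.96) that turned to 0.07 with median centring. Cd40, the costimulatory receptor for T cell help that macrophages and other cells also carry, had signals of 1209, 899 and 1437 in Bmi1 mutant arrays, against 1414, 1616 and 840 in wild-type arrays. The groups overlapped widely, with a difference of -0.10 (95% interval -0.80 to 0.61, limma adjusted p = 0.922), a direction that turned to 0.05 with the mean of its probe sets. The difference between Tnfrsf13c and Tnfrsf13b was not tested.

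Cxcr5, the receptor for the follicle chemokine CXCL13, had signals of 89.4, 48.8 and 25.3 in Bmi1 mutant arrays, against 390, 394 and 477 in wild-type arrays. It fell by 2.73 (SE 0.34, limma adjusted p = 0.0249), and 13.0% of its mean signal remained. Its mutant signals lay under the array medians of 97.4 to 114, so this share is not exact. Cd180 and Ly86, which encode the partners of a Toll-like receptor complex of B cells and myeloid cells, differed by 0.43 and -0.79, and neither was called (limma adjusted p = 0.592 and 0.288). Vpreb3, an early B lineage protein that associates with receptor chains, had signals of 94.7, 135 and 150 in Bmi1 mutant arrays, against 122, 87.8 and 54.2 in wild-type arrays. It was the restricted gene that lay above 0, at 0.49, and its groups overlapped (95% interval -0.20 to 1.18, limma adjusted p = 0.51). Vpreb3 signals lay around the array medians of 97.4 to 114, and without detection calls it cannot be told whether the gene was detected.

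**Figure D2:**
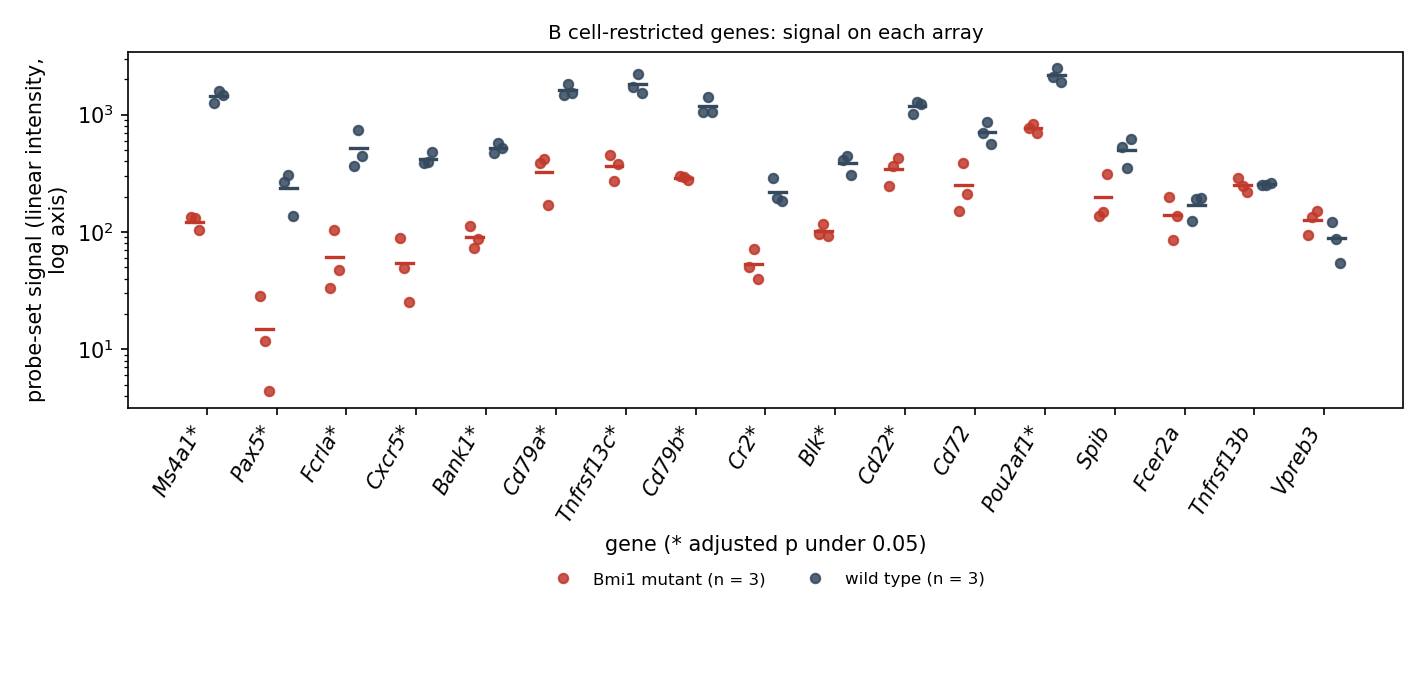
Signal of the chosen probe set on each array (y axis, linear intensity on a log axis) for the 17 B cell-restricted genes, ordered by log2 difference, with points for arrays, bars for group means (n = 3 each) and asterisks for an adjusted p under 0.05. The groups lie apart in 14 genes and overlap in Fcer2a, Tnfrsf13b and Vpreb3, and levels of different genes are not comparable.

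Among the transcription factors, Pax5 and the cofactor Pou2af1 fell. Pax5, which holds B cell identity, had signals of 28.2, 11.8 and 4.37 in Bmi1 mutant arrays, against 264, 306 and 138 in wild-type arrays. The difference was -3.04 ± 0.38 (SE, limma adjusted p = 0.0249). Its size depended on the offset of 16 added before the log2, because some mutant signals were below that offset. An offset of 1 gave -4.16 and lost the call (limma adjusted p = 0.0995), and an offset of 64 gave -1.90. The other Pax5 probe set was dim, with 4.31, 24.8 and 5.48 in Bmi1 mutant arrays and 25.6, 44.3 and 24.1 in wild-type arrays. Its groups overlapped, and it differed by -0.83 (limma adjusted p = 0.32 in a fit over all probe sets). The mean of the Pax5 probe sets gave -1.94 (limma adjusted p = 0.0295). Pou2af1, the B cell cofactor of octamer-binding factors, had signals of 774, 834 and 703 in Bmi1 mutant arrays, against 2093, 2507 and 1908 in wild-type arrays. It fell by 1.47 (SE 0.18, limma adjusted p = 0.0236), and 35.5% of its mean signal remained, the highest share of the 12 called genes.

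The other factors were not called. Spib, an ETS factor of B cells and plasmacytoid dendritic cells, had signals of 136, 148 and 312 in Bmi1 mutant arrays, against 524, 350 and 619 in wild-type arrays, a difference of -1.31 (limma adjusted p = 0.16). Bcl11a, which B cells and plasmacytoid dendritic cells also share, had signals of 64.8, 127 and 96.8 in Bmi1 mutant arrays, against 246, 317 and 210 in wild-type arrays. Its difference of -1.30 was the nearest to the threshold among members that missed it (limma adjusted p = 0.0837), and all 7 of its probe sets lay below 0. Ikzf3, which encodes Aiolos of B cells and other lymphocytes, had signals of 1065, 2221 and 1485 in Bmi1 mutant arrays, against 3376, 3887 and 3955 in wild-type arrays. Its groups did not overlap, with a difference of -1.29 (limma adjusted p = 0.0979).

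Ebf1, the early B cell factor that stromal cells also express, had signals of 312, 410 and 210 in Bmi1 mutant arrays, against 393, 434 and 322 in wild-type arrays. These overlapped, with a difference of -0.33 (95% interval -0.95 to 0.30, limma adjusted p = 0.641), and its 5 probe sets ran from -1.19 to -0.33. Pou2f2, an octamer-binding factor of B cells and other leukocytes, had signals of 115, 249 and 144 in Bmi1 mutant arrays, against 208, 336 and 160 in wild-type arrays. These also overlapped, with a difference of -0.44 (limma adjusted p = 0.637), and its 3 probe sets ran from -0.44 to 0.37.

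**Figure D3:**
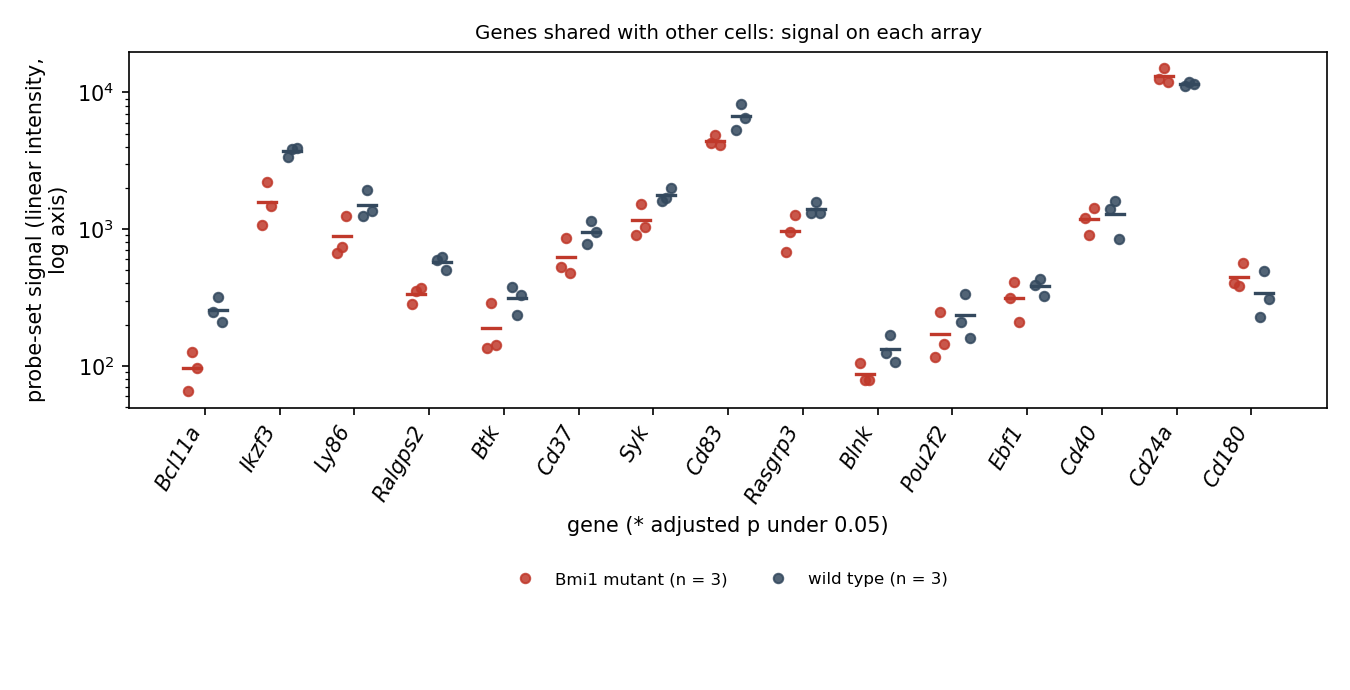
Signal of the chosen probe set on each array (y axis, linear intensity on a log axis) for the 15 measured genes shared with other cells, ordered by log2 difference, with points for arrays and bars for group means (n = 3 each). Bcl11a and Ikzf3 have the lowest differences (-1.30 and -1.29), Cd24a and Cd180 have a higher mean in the mutant arrays, and 0 of the 15 are called.

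The 12 called genes kept different shares of their signal as read, and differences between these shares were not tested. The share of the wild-type mean signal left in Bmi1 mutant arrays ran up to 35.5% (Pou2af1), with a median of 20.1%. It was 8.48% for Ms4a1. Pax5 was lower still, but with mutant signals partly below the offset of 16 and no detection calls its share is not given as exact. In Bmi1 mutant arrays Ms4a1, Blk, Bank1, Fcrla, Cr2 and Cxcr5 also read near or under the array medians of 97.4 to 114. Without detection calls their shares, and so the median share, are not exact either. For the 15 shared genes the remaining share ran from 37.4% (Bcl11a) to 131% (Cd180), with a median of 65.6%. The summed signal of the 17 restricted genes was 3374 to 3747 in Bmi1 mutant arrays and 12477 to 15228 in wild-type arrays, without overlap. That of the shared genes was 23160 to 29158 in Bmi1 mutant arrays and 28332 to 34604 in wild-type arrays, with overlap. Cd24a alone gave 11925 to 15189 of that sum in Bmi1 mutant arrays and 11154 to 11854 in wild-type arrays. The mean log2 signal of the shared genes, which weighs each gene alike, was 9.11 to 9.53 in Bmi1 mutant arrays. In wild-type arrays it was 9.73 to 10.07, without overlap. Within the mutant group, replicate 3 had the lowest signal in 8 of the 12 called genes, and within the wild-type group replicate 2 had the highest in 10 of 12. Of the 32 measured members 29 lay below 0, as did 49.3% of the genes tested. By probe set, with several for some genes, 56 of 63 lay below 0. Cd40 and Pou2f2 had probe sets of opposite sign.

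Leaving out 1 array removed most calls. Among the 17 restricted genes limma called 3, 1 and 1 when wild-type replicate 1, 2 or 3 was left out, and 3, 5 and 5 when mutant replicate 1, 2 or 3 was left out. Ms4a1 was called in all 6 of these settings, Bank1 in 4 and Cd79b in 3, while Cd22, Blk, Pax5, Cr2 and Pou2af1 were called in 0 of the 6 although each stayed lower in the mutant. Over all 18193 genes, 75 rose and 93 fell with every array, against 120 and 88 with median centring. The total of 168 became 65, 2 and 8 when wild-type replicate 1, 2 or 3 was left out, and 23, 61 and 76 when mutant replicate 1, 2 or 3 was left out. The median of the restricted genes stayed between -1.94 and -1.74 when an array was left out.

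Further genes of B cells and of the B cell receptor pathway were mostly not called. Of 30 listed, 26 were measured, 1 fell and 0 rose, with a median of -0.30. An unadjusted p under 0.05 was found for 6 genes, against 14.5% of all genes, and 21 lay below 0, against 49.3%. The mutant arrays lay below all wild-type arrays in 7 genes and above them in 4, against 10.0% and 10.4% of all genes. Pik3ap1, an adaptor that links the receptor to phosphoinositide 3-kinase, had signals of 488, 706 and 564 in Bmi1 mutant arrays, against 1291, 1267 and 1457 in wild-type arrays. It fell by 1.18 (limma adjusted p = 0.0487), a call lost whichever of the 6 arrays was left out. The kinase gene Prkcb (-0.98), the NF-kappaB gene Rel (-0.95) and the B cell surface gene Fcrl1 (-1.13) were not called, nor was Ifitm1, which lay above 0 at 1.47 (limma adjusted p = 0.262, 0.181, 0.181 and 0.115).

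Few markers of other B lineage stages were called. For comparison, 0.511% of all genes were called lower, 14.5% had an unadjusted p under 0.05 and 49.3% lay below 0. Of 7 measured plasma cell markers 1 fell, with 2 at an unadjusted p under 0.05 and a median of -0.35. Their summed signal was 14492 to 15622 in Bmi1 mutant arrays against 15920 to 17942 in wild-type arrays, without overlap. The plasma cell marker that was called was Irf4, a factor of plasma cells and other activated leukocytes, which fell by 1.29 (limma adjusted p = 0.0442). Mzb1, an endoplasmic reticulum protein of B and plasma cells, had signals of 218, 105 and 145 in Bmi1 mutant arrays, against 238, 430 and 328 in wild-type arrays. These did not overlap, but the difference of -1.03 was not called (limma adjusted p = 0.2). Prdm1, a transcription factor of plasma cells and other cells, differed by -0.53 with overlapping groups (limma adjusted p = 0.43). Jchain, the joining chain of secreted immunoglobulin, averaged 3330 ± 727 in Bmi1 mutant arrays and 4238 ± 843 in wild-type arrays (SD, n = 3 each, limma adjusted p = 0.575). Of 7 precursor B cell markers limma called 0, with 3 at an unadjusted p under 0.05 and a median of -0.18. Of these markers 6 lay below 0 and 1 above. The surrogate light chain genes Igll1 (-1.08) and Vpreb1 (-0.95) and the polymerase gene Dntt (-0.80) had the smallest p among them (limma adjusted p = 0.248, 0.306 and 0.339). The 3 probe sets of Dntt ran from -2.20 to -0.80, and the 2 of Igll1 from -1.08 to -0.32. Of 5 measured germinal centre markers limma called 0, with 1 at an unadjusted p under 0.05 (Gcsam, -0.86) and a median of 0.16.

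Markers of other cells moved in the same arrays, and their part in the B cell result was not tested. Among all genes, 0.511% were called lower, 14.5% had an unadjusted p under 0.05 and 49.3% lay below 0. In 10.0% of all genes every mutant array lay below every wild-type array. Natural killer cell markers fell in 7 of 9 genes (Ncr1, Klra8, Eomes, Klre1, Gzmb, Gzma and Klrk1), all 9 at an unadjusted p under 0.05, with a median of -2.77 and a summed signal of 2569 to 4623 in Bmi1 mutant arrays against 13413 to 20695 in wild-type arrays. Dendritic cell markers fell in 4 of 9 (Cd209a, Ccr7, Siglech and Xcr1), with 6 at an unadjusted p under 0.05, a median of -1.49 and sums of 5760 to 6637 in Bmi1 mutant arrays against 10073 to 10521 in wild-type arrays. T cell markers fell in 1 of 11 (Cd8a, -1.57). All 11 lay below 0, 9 had an unadjusted p under 0.05 and 8 did not overlap between genotypes, with a median of -0.92 and sums of 5754 to 7880 in Bmi1 mutant arrays against 10243 to 14989 in wild-type arrays. Each of these 3 sums was lower in every mutant array than in every wild-type array. Xcr1 read 2.9, 2.68 and 13.0 in Bmi1 mutant arrays, below the offset of 16, against 44.8 to 89.2 in wild-type arrays. Ncr1 read 11.2 in mutant replicate 1, so the offset limits the folds of both genes.

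Myeloid, pan-hematopoietic and tissue markers had few calls. The shares over all genes were 0.511% called lower, 0.412% called higher, 14.5% at an unadjusted p under 0.05 and 49.3% below 0. All 7 measured neutrophil markers lay above 0, with a median of 1.46, 0 called by limma, 6 at an unadjusted p under 0.05, and sums of 22600 to 40416 in Bmi1 mutant arrays against 10471 to 15059 in wild-type arrays. Macrophage and monocyte markers had a median of 0.05, with 1 of 11 lower (Siglecf, -2.19) and 3 at an unadjusted p under 0.05. Of these 11 markers 5 lay below 0 and 6 above, among them Itgam at 1.06 (limma adjusted p = 0.229). The sums of these markers were 43843 to 53821 in Bmi1 mutant arrays against 44015 to 53718 in wild-type arrays. Of 10 pan-hematopoietic markers limma called 0, with 1 at an unadjusted p under 0.05 (Cd48), a median of -0.20, and sums of 57770 to 70389 in Bmi1 mutant arrays against 61920 to 80208 in wild-type arrays. Among 9 fibroblast markers 1 rose (Col1a1, 1.37), with 5 at an unadjusted p under 0.05, a median of 0.68 and sums of 43714 to 48921 in Bmi1 mutant arrays against 20269 to 34721 in wild-type arrays. Endothelial and epithelial markers had medians of 0.03 and 0.12 over 8 genes each, with 0 called by limma and 1 and 0 at an unadjusted p under 0.05. Their sums were 16500 to 18419 in Bmi1 mutant arrays against 13378 to 22336 in wild-type arrays for endothelial markers, and 69070 to 78708 in Bmi1 mutant arrays against 65758 to 70023 in wild-type arrays for epithelial markers.

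**Figure D4:**
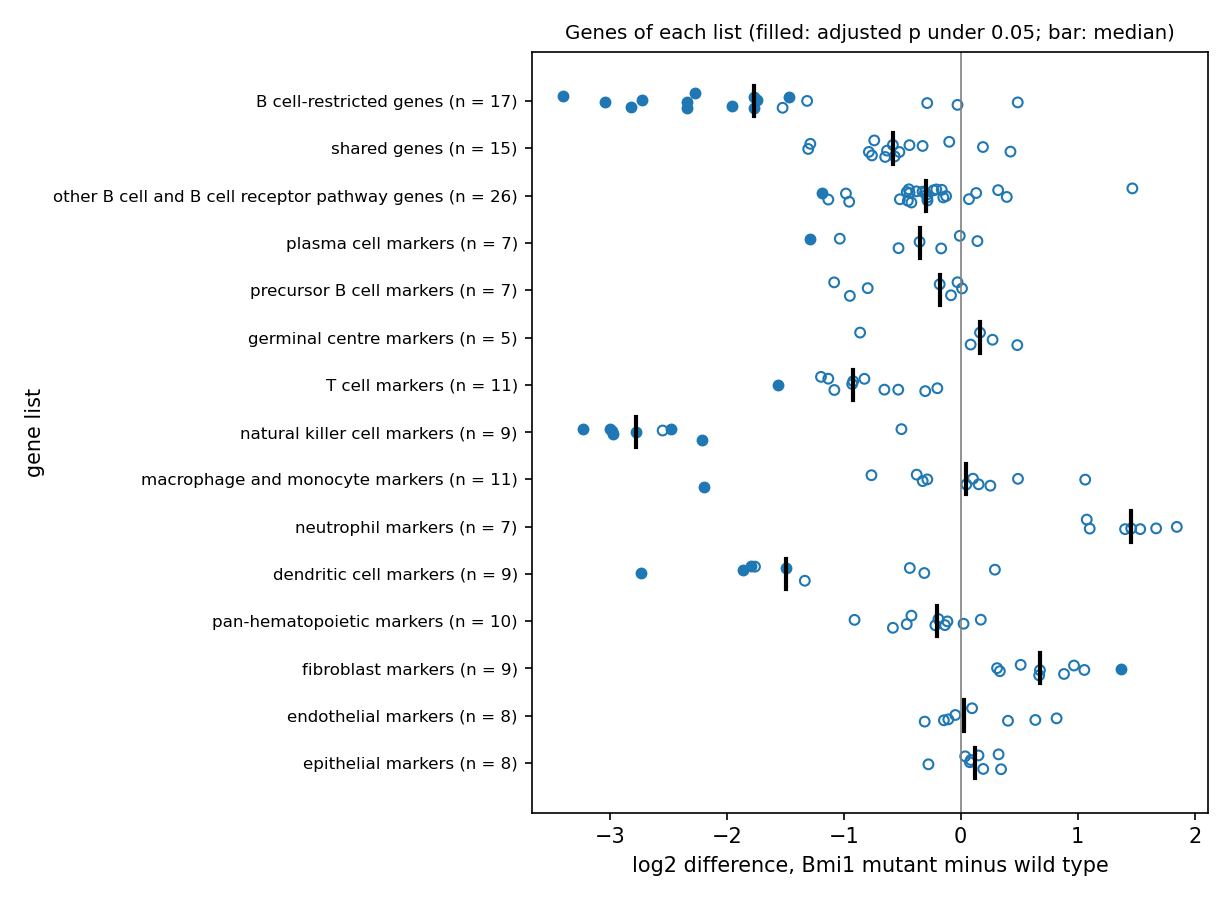
Log2 difference (Bmi1 mutant minus wild type, x axis) of each measured gene of each list (y axis). Filled points have an adjusted p under 0.05 and bars are list medians: -1.77 for restricted, -0.58 for shared, -2.77 for natural killer cell and 1.46 for neutrophil genes.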

How the data were processed

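RNA of 6 lung cell samples was amplified to cDNA and hybridised to Affymetrix Mouse Genome 430 2.0 arrays. The authors deposited linear intensities, 1 per probe set, and their processing notes name Affymetrix Expression Console 1.1. Background step, summarization and detection calls are not stated. Trimmed means were 500.0023 to 500.0025 on every array, a common scaling target that hides a shift of all genes together. Median signals were 97.4 to 114, and the number of arrays limits the precision.

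Intensities were turned to log2(signal + 16), which understates the change of dim genes. Of 45101 probe sets, 64 were controls, 34945 had 1 gene symbol, 932 several and 9160 none, by the platform annotation, and those with several or none were not used. Where a gene had several probe sets (9010 genes), the one with the highest mean log2 value was used. Entrez numbers of 18031 of 18193 genes were found in RefSeq.

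The fit used limma 3.58.1 (R 4.3.3, lmFit and eBayes) without covariates, a prior of 2.93 degrees of freedom, Benjamini-Hochberg adjustment over all genes and a call at an adjusted p under 0.05. Intervals are limma's 95% intervals for 1 gene, not adjusted for many genes. The 34 members, their split into restricted and shared and the other lists (B cell receptor pathway, plasma cell, precursor, germinal centre, T, natural killer, macrophage, neutrophil, dendritic, pan-hematopoietic, fibroblast, endothelial, epithelial) were chosen with earlier results of these data known. The text names every member, Bmi1, Ptprc, Pecam1, and from each other list its called genes and up to 4 with the smallest p. Array values are printed for called members and for 8 others with the smallest p or with probe sets of opposite sign (Bcl11a, Ikzf3, Cd72, Ralgps2, Spib, Cd83, Cd40, Pou2f2). Those of Syk, Fcer2a, Tnfrsf13b, Vpreb3, Cd24a and Ebf1, and the promoter windows shown, were added after their values were seen. Alternatives were other offsets, normalizations, filters, probe-set rules, priors, a replicate block, another threshold and leaving out each array. Figures were drawn with matplotlib 3.10.9.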

Additional observations from a re-analysis of the deposited data

How the results depend on the processing

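Over 19 alternatives, the direction of Tnfrsf13b turned under quantile normalization (0.00), median centring (0.07) and without mutant replicate 3 (0.06), and that of Cd40 turned for the mean of probe sets (0.05), without mutant replicate 2 (0.08) and when wild-type replicate 2 was left out (0.09). With an array left out they ran from -0.12 to 0.06 and from -0.38 to 0.09. The 12 called genes kept their direction in all alternatives run. Genes called in all were 38 and 264 with offsets of 1 and 64, 284 among genes above the median level, 341 with a signal of at least 100 on at least 3 arrays, 111 without joining probe sets, 438 with an intensity trend and robust prior, 455 at an adjusted p under 0.1, and 2 to 76 with an array left out. Of the 17 restricted genes limma called 3 with an offset of 1 (Ms4a1, Cd79b and Bank1), 6 among the 9 above the median level, where fewer were tested, and 1 to 5 with an array left out. Their median was -2.01 and -1.61 with offsets of 1 and 64, and -1.94 to -1.74 with an array left out. Shared genes called lower numbered 1 among genes above the median level (Ikzf3), 1 with the signal filter (Bcl11a), 1 with the trend prior (Ikzf3) and 2 at an adjusted p under 0.1. The pathway genes had 0 called with an offset of 1, quantile normalization, the mean of probe sets, no joining, and each array left out, with 4 to 11 at an unadjusted p under 0.05. With the replicate number as a block, limma called 0 genes in all, 0 restricted and 0 pathway genes, with 2611, 14 and 6 at an unadjusted p under 0.05. Deviations from the group means correlated at 0.073, 0.048 and 0.032 between same-numbered samples, and at -0.057 to 0.001 between the other pairs. All these values are small, and the labels state no pairing. Whether the replicate numbers mark pairs was not tested. The cause of these changes was not tested. Signals below the offset of 16 (such as Pax5, Xcr1 and Ncr1 in the mutant) limit the folds of dim genes.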

Other observations

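Other probe sets of the members gave values that the chosen ones do not show. In a fit over all probe sets, a second Bcl11a probe set read 54.0, 51.9 and 44.9 in Bmi1 mutant arrays, against 172, 236 and 180 in wild-type arrays, and was called (log2 difference -1.67, limma adjusted p = 0.0267), while the chosen one was not (0.107 in that fit). An Fcrla probe set with 28.5, 13.4 and 15.3 in Bmi1 mutant arrays and 382, 485 and 399 in wild-type arrays had a greater difference than the chosen one (-3.66, limma adjusted p = 0.00526). A dim Ebf1 probe set read 7.74, 1.52 and 22.7 in Bmi1 mutant arrays, against 42.7, 63.5 and 25.2 in wild-type arrays, and was not called (-1.19, limma adjusted p = 0.222). These probe sets were picked after their values were seen.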
